A study of Caenorhabditis elegans with 6 samples.

Results

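The sensory cilium genes examined here encode the parts of the primary cilia with which worm sensory neurons read their surroundings. They were taken by symbol from the platform's gene table: every numbered gene of the dyf, bbs, mks, nphp, ift and xbx families, together with osm-1, osm-3, osm-5, osm-6, che-2, che-3, che-10, che-11, che-13, arl-13, klp-11, daf-10 and daf-19. The rule found 50 probe sets among the 26192 that carry a gene, each for a different symbol, and 49 of them carry a single gene identifier. The remaining probe set carries 2 identifiers under an mks symbol; it is counted but not described as a gene. Total RNA came from whole wild-type (N2) Caenorhabditis elegans, and each of the 6 samples, 3 per group, was read on an Affymetrix array with 1 colour. The exposed group (BSA-SPION) spent 24 h at 20 °C in 50% M9 buffer holding 500 µg/mL of BSA-SPION, superparamagnetic iron oxide particles of nanometre size that carry bovine serum albumin as a single surface layer. The control group spent the same 24 h in 50% M9 buffer alone. Both groups were hermaphrodites that had been synchronised by bleaching, fed E. coli OP50 on NGM plates and grown for 48 h to the L4 larval stage beforehand. Worms given only albumin, or particles without it, were not among the 6 samples, so the core and its coat cannot be told apart as the source of a difference. The labels do not say whether the 3 samples of a group were separate cultures. Each p-value sets a group difference against the variation among these samples only, moderated over the probe sets, and that variation may be technical.

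In C. elegans cilia are found on the dendrite endings of sensory neurons, where they hold the receptors and channels for odours, salts, temperature and touch. They are built by intraflagellar transport: kinesin motors carry trains of IFT-B and IFT-A proteins with their cargo to the tip, and a dynein motor carries them back. The BBSome rides on these trains and helps to sort membrane proteins, the transition zone at the base gates entry, and the RFX factor DAF-19 switches on many of these genes through a promoter element called the X-box. Worms with defective cilia often fail to take up lipophilic dye from the medium, which gave the dyf genes their name, and the human counterparts of several members are known from Bardet-Biedl syndrome, Meckel syndrome and nephronophthisis.

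Most sensory cilium genes had lower values in BSA-SPION worms than in controls, by modest amounts. Of the 50 probe sets, 47 had a negative log2 difference (BSA-SPION minus control), a share of 94.0%, against 44.7% of all tested probe sets. The median log2 difference was -0.55 for the cilium genes and 0.05 for all tested probe sets. In limma's fit over all tested probe sets, 4 cilium genes fell and 0 rose at an adjusted p under 0.05 (a call), which is 8.0% lower and 0% higher. The 4 were ift-81 and dyf-6 of the transport trains, the BBSome gene bbs-9, and che-10, which encodes the rootlet protein rootletin. Over all tested probe sets 2.60% fell and 1.06% rose, or 3.66% in either direction. At least 2-fold lower values were found for 6 of the 50 (12%), against 6.60% of all tested probe sets. At an unadjusted p under 0.05 there were 21 lower and 0 higher, or 42.0% lower, against 12.4% lower and 10.1% higher over all tested probe sets. The files hold no detection calls, so whether a dim value lay above background was not tested. A filter on dim probe sets left out 33 of the 50, dyf-6, bbs-9, che-10 and mks-2 among them, and a fold given for a dim gene is that of the deposited values, which may understate it. In whole worms, less of these RNAs per ciliated cell and a smaller share of ciliated cells in the total RNA cannot be told apart.

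The 3 BSA-SPION arrays lay wholly below the 3 controls for 24 of the 50 cilium probe sets (48.0%) and wholly above them for 0. Over all tested probe sets these shares were 13.5% and 14.6%. The mean over the 50 was 3.48, 3.76 and 3.42 (log2) on BSA-SPION arrays 1, 2 and 3, against 4.05, 4.13 and 4.15 on control arrays 1, 2 and 3. BSA-SPION 2 thus stood nearest to the controls, and it had the highest value of its group for 32 of the 50. The lowest value of all 6 arrays was on BSA-SPION 3 for 26 of them, on BSA-SPION 1 for 15 and on BSA-SPION 2 for 6.

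None of the 4 calls held without control 1, control 2, BSA-SPION 1 or BSA-SPION 3, where the number of called cilium genes was 0 in limma's fit, with 19, 16, 13 and 15 lower at an unadjusted p under 0.05. Over those same fits the number of calls among all tested probe sets fell to between 49 and 289, against 959 with all arrays. Without control 3 all 4 were kept and 6 cilium genes were called; without BSA-SPION 2, ift-81 and dyf-6 were kept and 3 were called. The median log2 difference of the cilium genes stayed between -0.73 and -0.50 when each array was left out in turn.

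**Figure D1:**
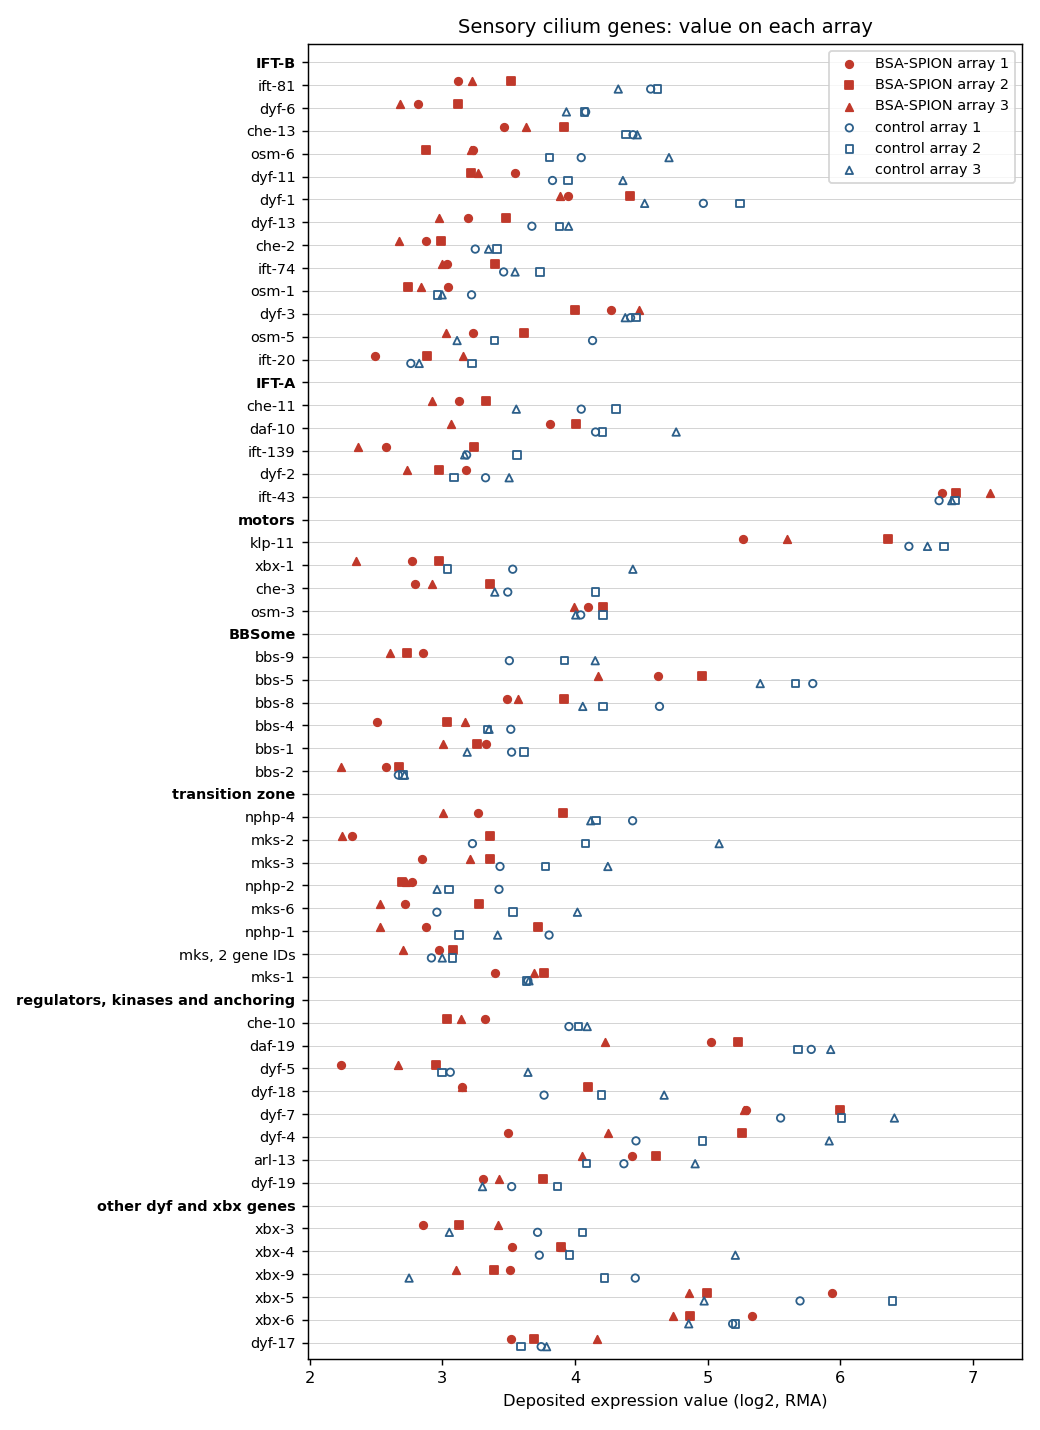
Deposited log2 value of each sensory cilium probe set (rows, grouped by role and ordered by p within a role) on each of the 6 arrays, with BSA-SPION arrays as filled red symbols and control arrays as open blue symbols; the symbol shape gives the array number. Filled symbols lie to the left of open ones without overlap in 24 of the 50 rows, and osm-3, ift-43 and dyf-17 are the rows with a higher BSA-SPION mean.

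The 13 IFT-B genes encode the core of the transport trains. All 13 had a negative log2 difference, with a median of -0.62, and 2 passed the adjusted threshold. On BSA-SPION arrays 1, 2 and 3, ift-81 was at 3.12, 3.51 and 3.22, against 4.57, 4.62 and 4.33 on control arrays 1, 2 and 3. The groups did not overlap. The product of ift-81 pairs with that of ift-74 in a module that binds tubulin in human and algal proteins. Its log2 difference was -1.22 ± 0.19 (SE), or 2.33-fold lower, with an adjusted p of 0.024 in limma. The call was kept in 12 of 17 alternative settings, and without single arrays its adjusted p reached 0.102.

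The other called gene of this group, dyf-6, had 2.82, 3.12 and 2.68 on BSA-SPION arrays and 4.08, 4.07 and 3.93 on control arrays. These values did not overlap either, and the controls lay within a narrow band. Its log2 difference was -1.16 ± 0.19 (SE), or 2.23-fold lower, with an adjusted p of 0.026 in limma. Of the 16 alternatives run on dyf-6, 11 kept the call, with an adjusted p of up to 0.105 without single arrays. It was also lost when array medians were made equal (adjusted p = 0.059). DYF-6 is an IFT-B subunit, and worms lacking it have short cilia.

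Another 6 IFT-B genes had an unadjusted p under 0.05 without passing the adjusted threshold, and their groups did not overlap. The largest of these differences was in osm-6, with 3.23, 2.88 and 3.22 on BSA-SPION arrays and 4.05, 3.81 and 4.71 on control arrays. OSM-6 is a core subunit of IFT-B trains, and its log2 difference was -1.08 ± 0.27 (SE, adjusted p = 0.072 in limma). Another subunit gene, che-13, was at 3.46, 3.92 and 3.63 in BSA-SPION worms and at 4.44, 4.38 and 4.47 in controls (log2 difference -0.76 ± 0.19, SE, adjusted p = 0.071 in limma). The 3 control values of che-13 lay close together, and BSA-SPION 2 was the nearest to them. The gene dyf-1, whose product links trains to the kinesin OSM-3 in worms, was at 3.94, 4.41 and 3.88 in BSA-SPION worms and at 4.97, 5.24 and 4.52 in controls. BSA-SPION 2 and control 3 came within a short distance of each other there (log2 difference -0.83 ± 0.25, SE, adjusted p = 0.114 in limma). The subunit gene dyf-11 was at 3.55, 3.22 and 3.27 in BSA-SPION worms and at 3.83, 3.95 and 4.36 in controls (log2 difference -0.70 ± 0.21, SE, adjusted p = 0.112 in limma). The subunit genes dyf-13 and che-2 had log2 differences of -0.62 and -0.49, with adjusted p-values of 0.129 and 0.162.

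The remaining 5 IFT-B genes had an unadjusted p of 0.05 or more. For ift-74, the partner of ift-81, the groups did not overlap, with 3.03, 3.39 and 2.99 on BSA-SPION arrays and 3.46, 3.74 and 3.55 on control arrays, and the log2 difference was -0.44 ± 0.19 (SE, adjusted p = 0.232). The groups overlapped for osm-1, dyf-3, osm-5 and ift-20, which encode further train subunits. Their log2 differences were between -0.25 and -0.09, with adjusted p-values from 0.586 to 0.850. On BSA-SPION arrays dyf-3 was at 4.27, 4.0 and 4.48, against 4.42, 4.46 and 4.38 on control arrays. For osm-5 the values were 3.23, 3.61 and 3.03 in BSA-SPION worms and 4.13, 3.39 and 3.11 in controls, where control 1 stood above the rest. The smallest difference of them was in ift-20, which was at 2.49, 2.88 and 3.15 in BSA-SPION worms and at 2.76, 3.22 and 2.82 in controls. Its 95% interval ran from -0.65 to 0.46 in the deposited values. This is a dim probe set, which may understate a fall, so a 2-fold fall of the transcript was not excluded. The signs of osm-1, dyf-3 and ift-20 turned when array medians were made equal, and that of osm-5 turned without control 1.

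IFT-A proteins serve the return trip and the entry of membrane proteins. Of 5 IFT-A genes, 4 had a negative log2 difference, 2 had an unadjusted p under 0.05 and 0 passed the adjusted threshold (median -0.58). Without single arrays this median lay between -0.84 and -0.40, and 1 to 3 genes had an unadjusted p under 0.05. On BSA-SPION arrays che-11 was at 3.13, 3.32 and 2.92, against 4.05, 4.31 and 3.56 on control arrays. The groups did not overlap, and control 3 was the lowest control (log2 difference -0.85 ± 0.24, SE, adjusted p = 0.099 in limma). Without control 3 its difference was -1.05 and che-11 passed with an adjusted p of 0.035, while without control 2 it was -0.68 with an adjusted p of 0.259 in limma. The second, daf-10, named for its effect on dauer formation, was at 3.81, 4.01 and 3.07 in BSA-SPION worms and at 4.15, 4.21 and 4.76 in controls (adjusted p = 0.198). The groups overlapped in ift-139, at 2.57, 3.24 and 2.36 in BSA-SPION worms and 3.18, 3.56 and 3.17 in controls (log2 difference -0.58, adjusted p = 0.254). They also overlapped in dyf-2, at 3.18, 2.98 and 2.73 in BSA-SPION worms and 3.32, 3.09 and 3.50 in controls (log2 difference -0.34, adjusted p = 0.369).

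The fifth IFT-A gene, ift-43, ran the other way. It was at 6.77, 6.87 and 7.13 on BSA-SPION arrays and at 6.74, 6.86 and 6.84 on control arrays. The groups overlapped, and the log2 difference was 0.11 ± 0.18 (SE), with a 95% interval of -0.31 to 0.53 and an adjusted p of 0.765. A 2-fold fall lay outside this interval. Its sign stayed positive in all 17 alternative settings.

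Of the 4 motor genes among the 50, 3 had an unadjusted p under 0.05 on the lower side and 0 passed the adjusted threshold (median -0.78). For klp-11, a motor subunit of heterotrimeric kinesin-II, the values were 5.27, 6.36 and 5.60 on BSA-SPION arrays and 6.52, 6.78 and 6.66 on control arrays. BSA-SPION 2 lay close to the controls and the other exposed arrays well below them. The log2 difference was -0.91 ± 0.29 (SE, adjusted p = 0.128 in limma), and klp-11 passed in 1 of 17 alternatives. Without BSA-SPION 2 the difference was -1.22 with an adjusted p of 0.045, and without BSA-SPION 1 it was -0.67 with an adjusted p of 0.305 in limma.

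The genes of the retrograde dynein among the 50, xbx-1 and che-3, were also lower on every exposed array than on any control, without passing. The light intermediate chain gene xbx-1 was at 2.77, 2.98 and 2.34 in BSA-SPION worms and at 3.53, 3.04 and 4.44 in controls (log2 difference -0.97 ± 0.37, SE, adjusted p = 0.176 in limma). Its spread was widest among the controls, where control 3 stood highest and control 2 was next to BSA-SPION 2. The heavy chain gene che-3 was at 2.80, 3.36 and 2.92 in BSA-SPION worms and at 3.49, 4.16 and 3.39 in controls (log2 difference -0.66 ± 0.27, SE, adjusted p = 0.205 in limma). No motor gene had an unadjusted p under 0.05 without BSA-SPION 1.

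The kinesin that builds the outer cilium, osm-3, showed hardly any difference. It was at 4.09, 4.21 and 3.99 on BSA-SPION arrays and at 4.04, 4.21 and 4.01 on control arrays. The 2 sets of values interleaved. Its log2 difference was 0.01 ± 0.17 (SE, adjusted p = 0.977). The 95% interval of -0.39 to 0.41 leaves out a 2-fold change of the deposited values in either direction. These values were low although the dim filter kept osm-3, so a 2-fold change of the transcript was not excluded. The sign of so small a difference turned without control 1, control 3 or BSA-SPION 2, where it was between -0.04 and -0.01.

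All 6 measured BBSome genes had a negative log2 difference, with a median of -0.57; 1 passed the adjusted threshold and 3 had an unadjusted p under 0.05. On BSA-SPION arrays bbs-9 was at 2.86, 2.73 and 2.60, against 3.50, 3.92 and 4.15 on control arrays. The groups did not overlap, and on this dim probe set the exposed arrays varied less than the controls. BBS-9 is a structural subunit of the BBSome, and its gene was 2.19-fold lower (log2 difference -1.13 ± 0.22, SE, adjusted p = 0.041 in limma). This call was lost without each of the 6 arrays except control 3, with adjusted p-values of 0.080 to 0.140. Of the 16 alternatives run on bbs-9, 5 kept the call.

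The lipid-binding BBSome subunit gene bbs-5 was at 4.62, 4.95 and 4.17 in BSA-SPION worms and at 5.79, 5.66 and 5.40 in controls. The groups did not overlap, and the log2 difference was -1.03 ± 0.25 (SE, adjusted p = 0.066 in limma). For bbs-8 the values were 3.49, 3.92 and 3.57 in BSA-SPION worms and 4.64, 4.21 and 4.06 in controls (log2 difference -0.64 ± 0.22, SE, adjusted p = 0.153 in limma). The groups did not overlap in bbs-4 either, at 2.51, 3.03 and 3.17 in BSA-SPION worms and 3.52, 3.34 and 3.35 in controls (log2 difference -0.50, adjusted p = 0.237). They did overlap in bbs-1, at 3.33, 3.26 and 3.01 in BSA-SPION worms and 3.52, 3.62 and 3.19 in controls (log2 difference -0.24, adjusted p = 0.515). Another subunit gene, bbs-2, was at 2.57, 2.67 and 2.23 in BSA-SPION worms and at 2.67, 2.70 and 2.71 in controls (log2 difference -0.20, adjusted p = 0.569). The sign of bbs-2 turned with equal array medians.

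**Figure D2:**
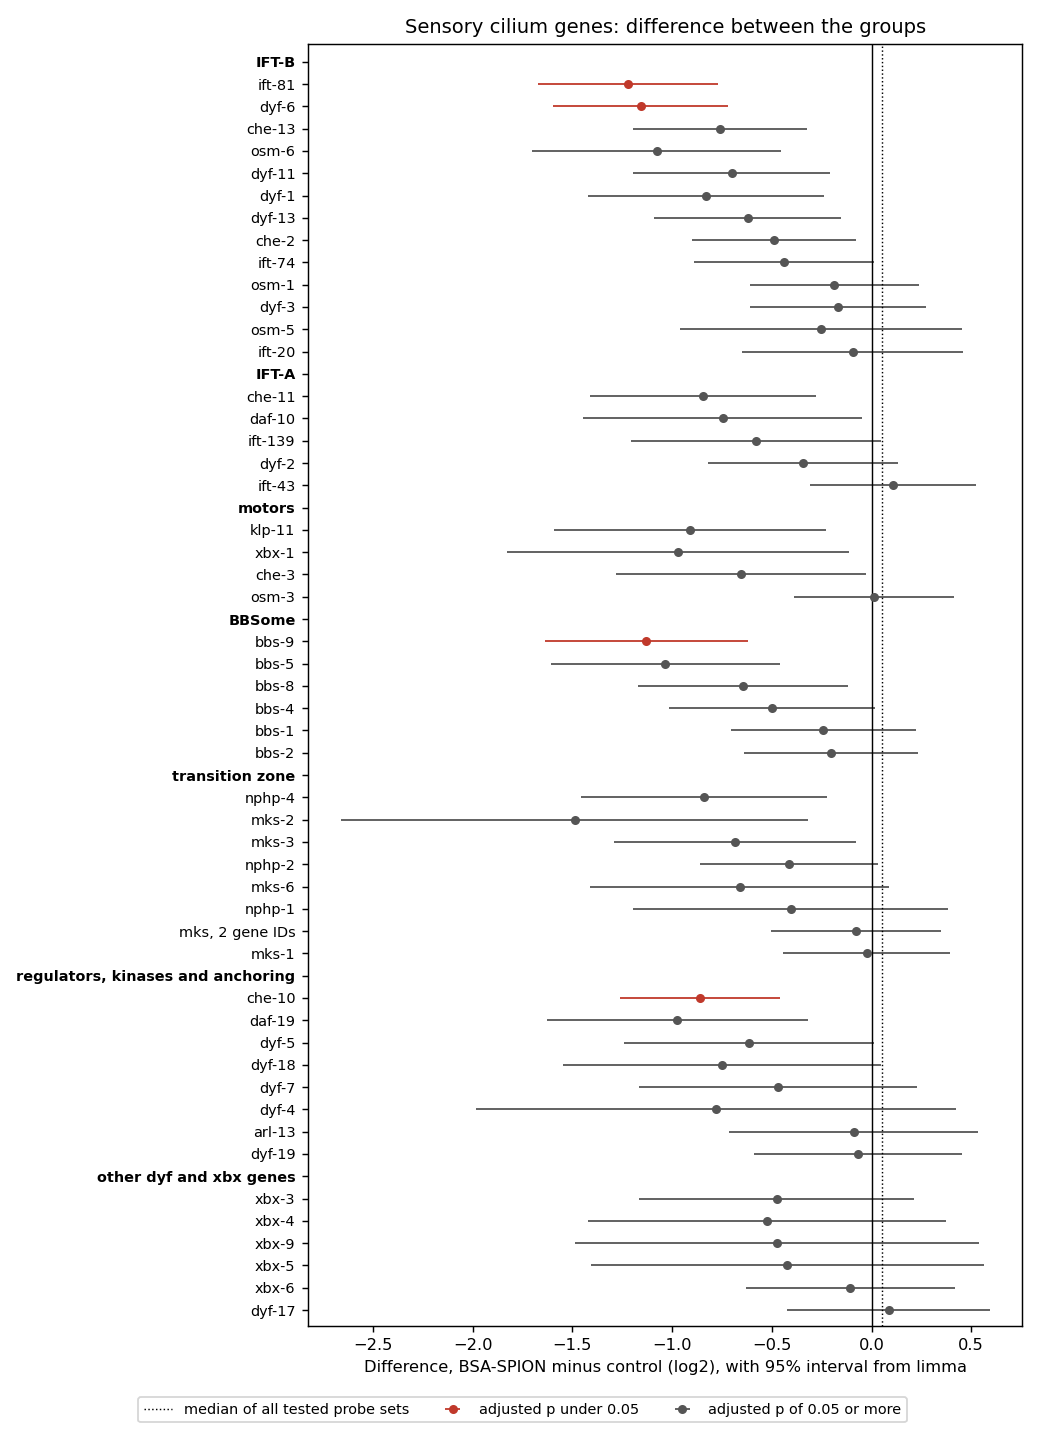
Log2 difference, BSA-SPION minus control, of each sensory cilium probe set with its 95% interval from limma; red marks an adjusted p under 0.05 and the dotted line is the median of all tested probe sets. The intervals of 21 probe sets lie wholly below 0, those of 18 lie wholly above a 2-fold fall (-1), and 48 of the 50 points lie to the left of the dotted line. Most of those 18 are dim probe sets, where the deposited values may understate a fall.

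The transition zone genes of the mks and nphp families encode the gate at the ciliary base. All 8 probe sets had a negative log2 difference (median -0.54), 3 had an unadjusted p under 0.05 and 0 passed the adjusted threshold. The log2 difference furthest from 0 in the deposited values was that of mks-2, a dim probe set whose gene encodes a transition zone membrane protein. It was at 2.32, 3.36 and 2.25 on BSA-SPION arrays, against 3.23, 4.08 and 5.09 on control arrays. The groups overlapped, since BSA-SPION 2 lay above control 1. Its log2 difference was -1.49 ± 0.50 (SE), 2.81-fold lower, with an adjusted p of 0.142 in limma, and it ranged from -1.94 to -1.01 without single arrays.

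The membrane protein gene mks-3 was at 2.84, 3.36 and 3.20 in BSA-SPION worms and at 3.43, 3.78 and 4.25 in controls (log2 difference -0.69 ± 0.26, SE, adjusted p = 0.178 in limma). For nphp-4, which encodes a nephrocystin, the values were 3.27, 3.91 and 3.01 in BSA-SPION worms and 4.43, 4.16 and 4.12 in controls (log2 difference -0.84 ± 0.26, SE, adjusted p = 0.121 in limma). In both genes BSA-SPION 2 was the highest exposed array, yet still below every control. The inversin-related gene nphp-2 was at 2.77, 2.69 and 2.73 in BSA-SPION worms and at 3.43, 3.05 and 2.96 in controls, without overlap (log2 difference -0.42, adjusted p = 0.250). The groups overlapped in mks-6, at 2.72, 3.28 and 2.53 in BSA-SPION worms and 2.96, 3.53 and 4.02 in controls (log2 difference -0.66, adjusted p = 0.276). They overlapped too in the nephrocystin gene nphp-1, at 2.87, 3.72 and 2.53 in BSA-SPION worms and 3.80, 3.13 and 3.42 in controls (log2 difference -0.41, adjusted p = 0.522).

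The B9-domain gene mks-1 showed almost no difference, at 3.40, 3.76 and 3.69 on BSA-SPION arrays and 3.64, 3.63 and 3.65 on control arrays. Its 95% interval ran from -0.44 to 0.39 in the deposited values. This too is a dim probe set, so a 2-fold fall of the transcript was not excluded. The sign of mks-1 turned with equal array medians. The mks probe set with 2 identifiers was also close between the groups, at 2.98, 3.08 and 2.70 in BSA-SPION worms and 2.92, 3.08 and 3.0 in controls (log2 difference -0.08). Transition zone means separated the arrays less well than those of IFT-B: they were 2.90, 3.40 and 2.83 on BSA-SPION arrays and 3.48, 3.55 and 3.81 on control arrays. BSA-SPION 2 stood next to control 1. Without single arrays the median of this group lay between -0.77 and -0.45. The number with an unadjusted p under 0.05 was 5 without BSA-SPION 2, and 1 without BSA-SPION 1 or BSA-SPION 3.

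The next group holds regulators, kinases and anchoring proteins. Of these 8 genes, 1 passed the adjusted threshold, 2 had an unadjusted p under 0.05 and all 8 had a negative log2 difference (median -0.68). The rootletin gene che-10, needed for the fibre that roots the cilium in the dendrite, was at 3.32, 3.04 and 3.14 on BSA-SPION arrays, against 3.95, 4.03 and 4.09 on control arrays. Both groups were tight and did not overlap. The fall was 1.81-fold (log2 difference -0.86 ± 0.17, SE, adjusted p = 0.044 in limma). This call too was lost without each of the 6 arrays except control 3, with adjusted p-values of 0.092 to 0.145, and 3 of the 16 alternatives run on che-10 kept it.

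The gene of the RFX factor DAF-19 was at 5.02, 5.23 and 4.22 on BSA-SPION arrays and at 5.78, 5.68 and 5.93 on control arrays. The exposed arrays all lay below the controls, and BSA-SPION 3 stood well apart from the other exposed arrays. The means were 4.82 ± 0.53 in BSA-SPION worms and 5.80 ± 0.12 in controls (SD, n = 3 each). The log2 difference was -0.97 ± 0.28 (SE), with an adjusted p of 0.10 in limma, so daf-19 did not pass, and it passed in 0 of the 17 alternatives. Without BSA-SPION 3 its difference was -0.67.

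The other 6 genes of this group had an unadjusted p of 0.05 or more. The kinase gene dyf-5, which limits cilium length in worms, did not overlap between the groups, at 2.24, 2.95 and 2.67 in BSA-SPION worms and 3.06, 3.0 and 3.64 in controls (log2 difference -0.61, adjusted p = 0.230). Another kinase gene, dyf-18, was at 3.14, 4.10 and 3.15 in BSA-SPION worms and at 3.77, 4.20 and 4.67 in controls (log2 difference -0.75, adjusted p = 0.247). Here BSA-SPION 2 lay above control 1. The same overlap was seen in dyf-7, whose product anchors dendrite tips during development, with 5.29, 5.99 and 5.27 in BSA-SPION worms and 5.55, 6.01 and 6.41 in controls (adjusted p = 0.399). It recurred in dyf-4, with 3.49, 5.26 and 4.25 in BSA-SPION worms and 4.46, 4.96 and 5.92 in controls (adjusted p = 0.416).

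The small GTPase gene arl-13 and the transition fibre gene dyf-19 differed little. The values of arl-13 were 4.43, 4.61 and 4.05 in BSA-SPION worms and 4.37, 4.09 and 4.91 in controls, and those of dyf-19 were 3.30, 3.75 and 3.43 in BSA-SPION worms and 3.52, 3.87 and 3.30 in controls. Their log2 differences were -0.09 and -0.07, with adjusted p-values of 0.876 and 0.887, and both signs turned with equal array medians. Control 3 was the highest control for all of these genes except dyf-19. The median log2 difference of the 8 genes was -0.39 without control 3 and -0.39 without BSA-SPION 1, and without single arrays 2 to 5 of them had an unadjusted p under 0.05.

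The remaining 6 genes, of the xbx and dyf families, are known mainly from X-box promoters or dye-filling defects. None passed or reached an unadjusted p under 0.05 in limma, and the groups overlapped in all 6. On BSA-SPION arrays xbx-4 was at 3.52, 3.89 and 3.90, against 3.73, 3.96 and 5.21 on control arrays, so that control 3 alone stood clear (log2 difference -0.53, adjusted p = 0.464). For xbx-9 control 3 was instead the lowest of all arrays: the values were 3.51, 3.39 and 3.10 in BSA-SPION worms and 4.45, 4.22 and 2.75 in controls (log2 difference -0.47, adjusted p = 0.563). The values of xbx-3 were 2.85, 3.12 and 3.42 in BSA-SPION worms and 3.72, 4.06 and 3.05 in controls (log2 difference -0.48, adjusted p = 0.386). Here too control 3 was the low control. It was so again in xbx-5, at 5.94, 5.0 and 4.86 in BSA-SPION worms and 5.70, 6.39 and 4.97 in controls (log2 difference -0.42, adjusted p = 0.598). Values of xbx-6 were 5.33, 4.87 and 4.74 in BSA-SPION worms and 5.19, 5.21 and 4.86 in controls (log2 difference -0.11, adjusted p = 0.818). The positive difference was that of dyf-17, at 3.52, 3.69 and 4.17 in BSA-SPION worms and 3.74, 3.59 and 3.79 in controls (log2 difference 0.09, adjusted p = 0.851). Without control 3, xbx-9 was at -1.0 and passed with an adjusted p of 0.040, while without control 1 it was at -0.15 with an adjusted p of 0.898 in limma. Without single arrays the median of the 6 lay between -0.49 and -0.16.

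Further ciliary components outside the symbol rule were mostly lower too. Of 20 such genes, 19 had a negative log2 difference, 9 had an unadjusted p under 0.05 on the lower side and 0 on the higher, and 0 passed the adjusted threshold (median -0.69). This median was -0.39 without BSA-SPION 1. The smallest p was that of the kinase gene cdkl-1, at 2.92 ± 0.35 in BSA-SPION worms and 3.89 ± 0.04 in controls (SD, n = 3 each, adjusted p = 0.057 in limma). The small GTPase genes rab-28 and arl-3 had log2 differences of -1.20 and -0.92 (adjusted p = 0.074 and 0.075). The dynein light chain gene dylt-2 had a log2 difference of -1.01 (adjusted p = 0.177). The partners of KLP-11 in kinesin-II, klp-20 and kap-1, overlapped between the groups, with log2 differences of -0.06 and -0.20.

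Ciliary tubulins and tubulin-modifying enzymes had a median of -0.29, between those of the cilium genes (-0.55) and of all tested probe sets (0.05). Of 10 genes, 8 had a negative log2 difference, against 44.7% of all tested probe sets. The groups were separate on the lower side for 4 of the 10, against 13.5% of all tested probe sets. At the adjusted threshold 0 passed, and 1 had an unadjusted p under 0.05. That gene was tba-5, an alpha-tubulin of sensory cilia, with a log2 difference of -0.59 (adjusted p = 0.146). The glutamylase gene ttll-4 had a log2 difference of 0.33 (adjusted p = 0.552).

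Of 26 genes listed for sensory signalling, not all of them particular to cilia, 4 fell and 0 rose at the adjusted threshold. Over all tested probe sets 2.60% fell and 1.06% rose. The median of the 26 was -0.26, with negative differences in 16. The Gα gene odr-3, needed for olfaction, was at 3.36 ± 0.54 in BSA-SPION worms and 5.48 ± 0.38 in controls (SD, n = 3 each, 4.36-fold lower, adjusted p = 0.022 in limma). Another Gα gene, gpa-2, was 2.85-fold lower (adjusted p = 0.040), and gpa-3 of the same family was 2.37-fold lower (adjusted p = 0.041). The gene eat-16, which encodes a regulator of G protein signalling, was 2.52-fold lower (adjusted p = 0.021). Without control 1, control 2 or BSA-SPION 1 none of these 4 stayed called (adjusted p up to 0.142), and odr-3 alone stayed called without BSA-SPION 3. The median of the list was -0.13 without control 2 and -0.42 without control 3. The diacetyl receptor gene odr-10 and the cyclic nucleotide-gated channel gene tax-4 had log2 differences of 0.09 and 0.24 (adjusted p = 0.839 and 0.578). The polycystin genes lov-1 and pkd-2, which act in male-specific ciliated neurons, had values between 2.47 and 3.12 on the 6 arrays and log2 differences of 0.15 and 0.01.

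**Figure D3:**
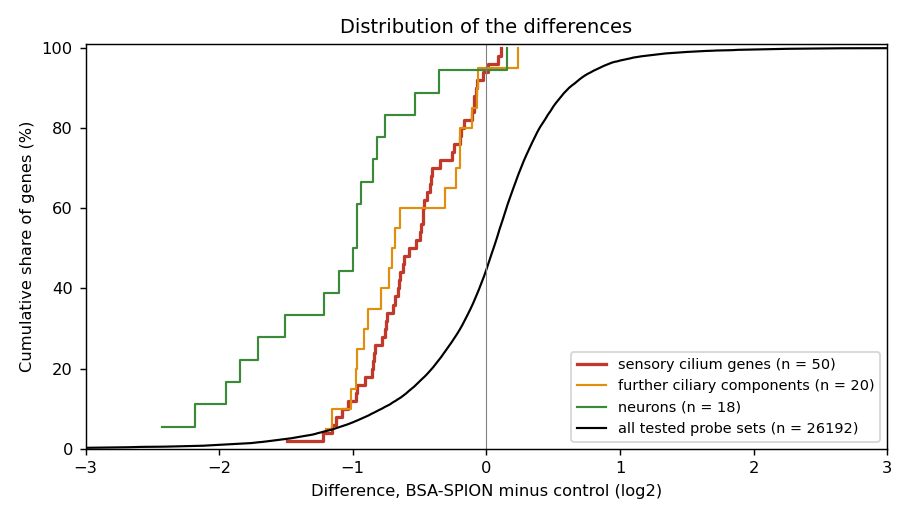
Cumulative share of genes (%) against the log2 difference, BSA-SPION minus control, for the sensory cilium probe sets, the further ciliary components, the neuron list and all tested probe sets. The medians of these sets are -0.55, -0.69, -0.98 and 0.05.

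Neuron and glia lists also had negative medians, and their part in the cilium result was not tested. Of 18 neuron genes 6 fell and 0 rose at the adjusted threshold, 15 had separate groups on the lower side, and the median was -0.98. None of the 6 calls held without BSA-SPION 1, and rgef-1 alone held without control 1 or control 2 (adjusted p of up to 0.139 in limma). Their mean was 6.06, 6.06 and 6.01 on BSA-SPION arrays 1, 2 and 3, against 7.42, 7.48 and 6.73 on control arrays 1, 2 and 3. Control 3 was the lowest control on the neuron list. Over the 50 cilium genes it was the highest by a small margin, at 4.15 against 4.13 on control 2. By role group, control 3 was the lowest control for IFT-B (3.88), BBSome (3.81) and the other dyf and xbx genes (4.10). It was the highest for motor (4.62), transition zone (3.81) and regulator genes (4.86). On the neuron list the 3 BSA-SPION arrays lay close together, whereas BSA-SPION 2 stood above the other exposed arrays on the cilium genes. Among 10 genes listed for sheath and socket glia, which surround the cilia, 0 passed and 1 had an unadjusted p under 0.05. Of these 10, 9 had a negative difference (median -0.41). The mean over the 10 was 3.46, 3.94 and 3.59 on BSA-SPION arrays, against 4.33, 4.18 and 4.20 on control arrays. The glial channel gene daf-6, a patched-related gene, was at 3.26, 5.50 and 3.42 in BSA-SPION worms and at 6.03, 5.52 and 6.50 in controls (adjusted p = 0.112 in limma), with BSA-SPION 2 next to control 2.

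**Figure D4:**
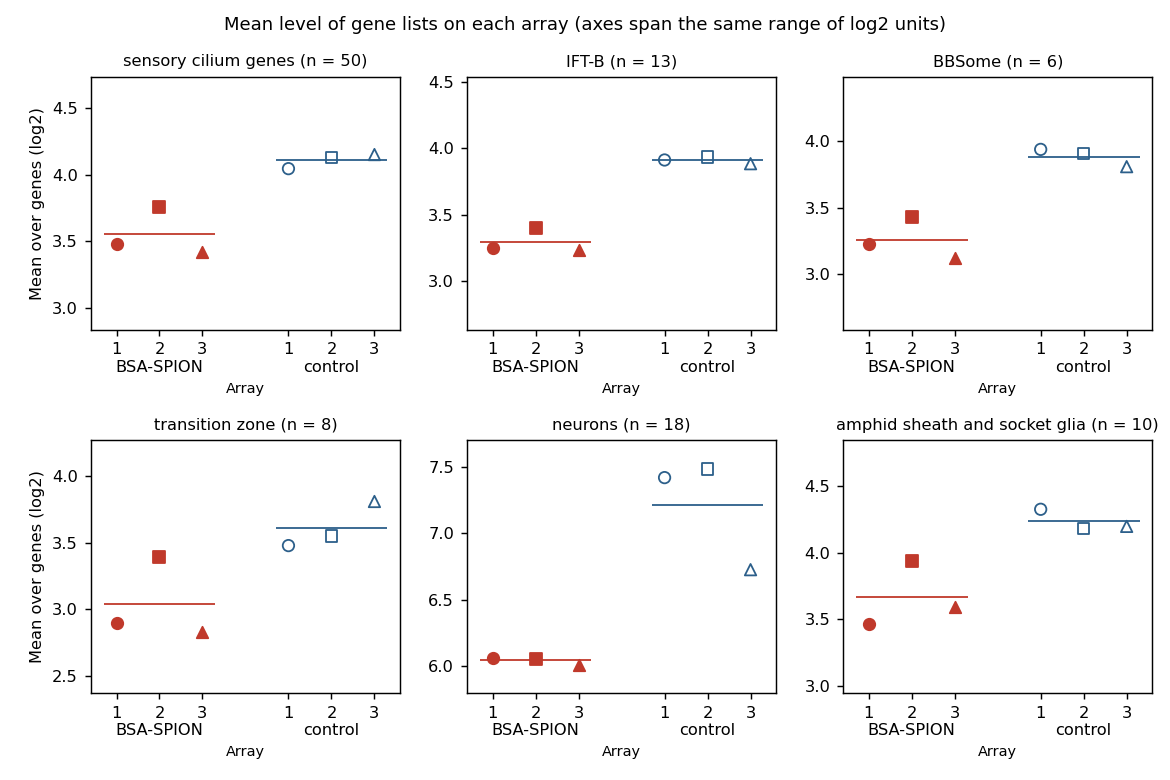
Mean log2 value over the genes of a list on each array, with BSA-SPION arrays 1 to 3 on the left and control arrays 1 to 3 on the right of each panel; horizontal lines are group means, n is the number of probe sets, and all panels span the same range of log2 units. Control 3 is the lowest control for neurons (6.73), IFT-B genes (3.88) and BBSome genes (3.81). It is the highest for transition zone genes (3.81) and, by a small margin, for all cilium genes (4.15). BSA-SPION 2 is the highest exposed array in the cilium and glia panels.

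Lists of other tissues, checked against the label of whole hermaphrodites, gave the following values on the 6 arrays. Of 10 body wall muscle genes 3 fell (dim-1, tni-1 and mup-2, median -1.11, 8 lower and 0 higher at an unadjusted p under 0.05). All 10 had a negative log2 difference, with array means of 7.14 to 7.63 in BSA-SPION worms and 8.18 to 8.84 in controls. Of 8 intestine genes 1 fell (ifb-2, median -0.09, 2 lower and 1 higher at an unadjusted p under 0.05), with means of 7.60 to 7.88 in BSA-SPION worms and 7.83 to 7.90 in controls. Of 8 hypodermis genes 0 passed (median 0.14, 1 lower and 1 higher at an unadjusted p under 0.05), with means of 5.75 to 6.03 in BSA-SPION worms and 5.64 to 6.08 in controls. Of 8 sperm genes 1 rose (nspd-1, median 0.66, 0 lower and 4 higher at an unadjusted p under 0.05). All 8 had a positive log2 difference, with means of 4.30 to 4.97 in BSA-SPION worms and 3.55 to 3.92 in controls. Of 8 germline and 8 oocyte and eggshell genes 0 passed, with 3 and 4 higher at an unadjusted p under 0.05 and medians of 0.39 and 0.80. Germline means were 7.99 to 8.73 in BSA-SPION worms and 7.38 to 8.25 in controls, and oocyte means were 8.17 to 8.99 in BSA-SPION worms and 7.50 to 8.36 in controls. None of the 5 muscle, intestine and sperm calls held without control 1, control 2, BSA-SPION 1 or BSA-SPION 3 (adjusted p of up to 0.159 in limma), and those of mup-2 and ifb-2 were also lost without BSA-SPION 2. Without single arrays the intestine median lay between -0.13 and 0.0019, the hypodermis median between 0.034 and 0.23, the germline median between 0.10 (without control 3) and 0.73 (without BSA-SPION 3), and the oocyte median between 0.49 (without control 3) and 1.12 (without BSA-SPION 3). The part of these tissues in the cilium result was not tested.

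The dim filter took out genes whose mean over 6 arrays lay below the median probe set. Among the 17 brighter ones the median log2 difference was -0.64 and 15 were negative. Over all 13096 probe sets that the filter kept, the median was 0.04 and 47.5% were negative. RefSeq places 18 of the 49 named members across another protein-coding gene. Whether the array tells the strands apart is not stated in the labels, and the part of such neighbours in a member's signal was not tested. Of 21 such neighbours measured, beside 17 members, 12 had a negative and 9 a positive log2 difference, and 1 fell and 0 rose at the adjusted threshold. The one that fell was idpb-5, which overlaps nphp-4 (-3.89, adjusted p = 0.0064). Among the others the differences ran from -1.03 for flp-1, which overlaps daf-10 (adjusted p = 0.066), to 1.04 for spe-5, which overlaps ift-20 (adjusted p = 0.129). The neighbour ags-3 of ift-81 was at -0.60 (adjusted p = 0.119). No protein-coding gene overlaps dyf-6, bbs-9, che-10 or daf-19 there.

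Scaling bears on the sign of the small differences. Array medians over tested probe sets were 3.70, 3.72 and 3.89 on BSA-SPION arrays and 3.98, 3.97 and 3.98 on control arrays. With equal medians the median log2 difference of all tested probe sets was 0.27 and that of the cilium genes -0.34. Of the 50 cilium probe sets 38 were negative, against 28.9% of all tested probe sets, and 1 was called (ift-81). At an unadjusted p under 0.05, 10 were lower with equal medians, against 21 as deposited. Setting the medians equal adds 0.21 to every difference, so the cilium median stays -0.61 relative to all tested probe sets by construction. A second quantile normalization, which can change it, gave -0.47, with 12 cilium probe sets lower at an unadjusted p under 0.05. Over all tested probe sets the calls were split as 278 higher and 681 lower on the deposited scale and as 593 higher and 381 lower with equal medians.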

How the data were processed

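The 6 arrays were used as 2 groups of 3, taken from the sample titles. Each probe set has 1 deposited log2 value per array. Per the submitters' processing notes these come from RMA and Expression Console (Affymetrix), and their size and range fit a log2 scale. Software versions, array build and strand handling were not found in the labels, and no coordinates are printed. The number of arrays limits the precision. Each of the 26192 probe sets with a gene in the platform table was tested in R 4.3.3 with limma 3.58.1 by lmFit, then eBayes with no trend, two-sided, with Benjamini-Hochberg adjustment over all of them and a threshold of 0.05. The other 3125 deposited probe sets stayed out. Every adjusted p comes from this fit unless an alternative is named. An exact permutation test of 3 arrays against 3 cannot go below 0.1, so none was run. Gene identifiers of 49 members matched RefSeq (WBcel235), with 0 symbols changed.

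Members, role groups and lists were chosen with earlier results of these data known, so lists are described by counts and medians and not tested. The values in every array were given for called genes, for the 5 smallest and 3 largest p of each role group, for daf-19, and for dyf-1 and ift-74, chosen after their values were seen. Of the list genes, ocr-1 and fig-1 matched no probe set of 1 gene. The procedure was tested on simulated arrays with independent noise and no array effects. That test cannot bear on how the calls moved when real arrays were left out or weighted. Alternatives covered scaling, filtering, eBayes settings, array weights, a replicate block, the control whose title says 3 and whose source label says 2, and leaving out arrays.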

Additional observations from a re-analysis of the deposited data

How the results depend on the processing

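The number of arrays and the low signal of most cilium probe sets limit what could be called. In limma 4 cilium genes were called as deposited, 4 with probe sets of 1 gene, 3 with a second quantile normalization and 3 with all deposited probe sets. There were 1 with equal array medians, 1 (of 17 tested) with dim probe sets left out, 1 with an eBayes trend, 2 with trend and robust, 9 with array weights, 2 with controls 2 and 3 averaged, 5 without both arrays numbered 3, and 0 to 6 without single arrays. All of these calls were falls. The titles' replicate numbers gave 2 calls as a replicate block, against 978 over all probe sets. Deviations of arrays with the same number correlated with r of 0.14, 0.08 and 0.25, against -0.23 to 0.19 for different numbers. BSA-SPION 2 and BSA-SPION 3 correlated best with the control of their own number, and BSA-SPION 1 with control 2 (0.19). Whether the numbers pair the arrays is thus not settled, and the main fit did not pair them. Over all probe sets 959 calls became 3473 with array weights, 2317 without both arrays numbered 3 and 49 to 1996 without single arrays. The cilium median was -0.34 with equal array medians, -0.42 without both arrays numbered 3 and -0.73 to -0.50 without single arrays, and it was negative under all 17 alternatives.

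The signs of 11 genes with small differences turned. For 8 of them this follows from equal array medians, which add 0.21 to every difference. The cause under the other settings was not tested. The mks probe set with 2 identifiers is not counted among the 11. Its sign also turned with equal array medians, and it was negative in 12 of its 15 alternatives. With equal array medians osm-1 was at 0.027, dyf-3 at 0.046, ift-20 at 0.12, bbs-2 at 0.013, mks-1 at 0.19, arl-13 at 0.12, dyf-19 at 0.15 and xbx-6 at 0.11. With a second quantile normalization dyf-3 was at 0.090, mks-1 at 0.14, arl-13 at 0.13, dyf-19 at 0.088 and xbx-6 at 0.10. With array weights arl-13 was at 0.13 and dyf-17 at -0.0056, and without both arrays numbered 3 they were at 0.29 and -0.063. Without single arrays osm-5 ranged from -0.47 to 0.039, ift-20 from -0.25 to 0.082, osm-3 from -0.044 to 0.075, mks-1 from -0.10 to 0.086, arl-13 from -0.27 to 0.14, dyf-19 from -0.20 to 0.083, xbx-6 from -0.28 to 0.015 and dyf-17 from -0.10 to 0.22. A planned search of promoters for the X-box was not run.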
